A study of Homo sapiens with 6 samples.

Results

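Chemokines made by renal carcinoma cells were described here through 10 genes taken by symbol: CCL2, CCL20, CXCL1, CXCL2, CXCL3, CXCL5, CXCL6, CXCL8, CXCL16 and CX3CL1. Of these, 9 had values among the 17114 gene symbols of the study, and 8 were among the 11151 genes that were tested. CXCL6 was not analysed here. CXCL16 lay under the filter on low values and was given by its values alone.

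The cells were 786-O, a human line grown from a clear cell renal carcinoma and known to lack functional VHL. The tested cells received XMU_MP_1 (3 libraries) and the controls received vehicle (3 libraries, labelled Vehicle). XMU-MP-1 blocks MST1 and MST2, the Hippo kinases that restrain the coactivators YAP and TAZ. The labels call the exposure a transfection, and dose and time were not given in the sources used here. Both groups come from 1 cell line in culture, so the values describe what the carcinoma cells transcribed and not which cells would be attracted. The labels do not say whether the libraries of a group were separate cultures, and p-values rest on a spread between libraries that may be technical.

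Chemokines are small secreted proteins that guide leukocytes along concentration gradients by binding G protein-coupled receptors. CXCL1, CXCL2, CXCL3, CXCL5, CXCL6 and CXCL8 carry the amino acids Glu-Leu-Arg before their CXC motif, act through CXCR2, and attract neutrophils. CCL2 attracts monocytes through CCR2, CCL20 attracts CCR6-bearing dendritic cells and lymphocytes, and CXCL16 and CX3CL1 are made as membrane-bound proteins that bind CXCR6 and CX3CR1. NF-κB drives the transcription of many of these genes after stimulation with interleukin-1 or TNF.

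Values are FPKM (fragments per kilobase, relative to the fragments of the library), a scale corrected for length on which levels of different genes can be compared. Across libraries the summed FPKM was 495351 to 527709 with XMU_MP_1 and 454889 to 487218 with vehicle. These sums are not depths, and the depth behind each value is unknown. All 10 markers listed for renal carcinoma cells passed the filter on low values. Of them 1 was called higher, 6 lower and 3 neither, with a median log2 change of -0.58, where 57.9% of all genes tested were called. PAX8, the one called higher, averaged 127.3 FPKM with XMU_MP_1 and 113.6 FPKM with vehicle, and KRT19, among those called lower, averaged 100.6 FPKM with XMU_MP_1 and 217.6 FPKM with vehicle. Of 10 leukocyte markers, 7 had values, and their sum was 1.79 to 2.42 FPKM with XMU_MP_1 and 3.29 to 4.17 FPKM with vehicle. CSF1R was the highest of them, at a mean of 0.82 FPKM with XMU_MP_1 and 2.36 FPKM with vehicle, and PTPRC was at 0.18 to 0.45 FPKM in the 6 libraries. Endothelial markers summed to 0.56 to 0.67 FPKM with XMU_MP_1 and 0.96 to 1.2 FPKM with vehicle, and fibroblast markers to 0.73 to 1.48 FPKM with XMU_MP_1 and 1.31 to 1.49 FPKM with vehicle. The part of such cells in the chemokine levels was not tested. XMU_MP_1 replicate 3 and Vehicle replicate 2 stood apart from the others of their groups. Over 3950 abundant genes, log2 differences had an SD of 0.0718 between XMU_MP_1 replicates 1 and 2 and of 0.0929 between Vehicle replicates 1 and 3, against 0.146 to 0.158 for the other pairs within a group and 0.377 to 0.452 between groups. Of the 9 chemokines, 7 had their lowest XMU_MP_1 value in replicate 3, and 5 had their lowest vehicle value in replicate 2.

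The promoters of 7 of the 10 genes (not CCL2, CXCL16 and CX3CL1) were taken from RefSeq (build GRCh38.p14), as windows of 250 bases before to 50 bases after the start. The windows were searched on both strands for 2 forms of the NF-κB motif, GGANTTTCC and GGGAANNCC, for the AP-1 motif TGANTCA, the TEAD motif GGAATG and the TATA box TATAAA. The 120 bases before the start are shown for the 6 tested genes that had a window, because they show where the NF-κB motif lies and how close CXCL1, CXCL2 and CXCL3 are in sequence. Capitals mark the NF-κB motif, and all sequences run 5′ to 3′ on the gene's own strand.
CXCL1: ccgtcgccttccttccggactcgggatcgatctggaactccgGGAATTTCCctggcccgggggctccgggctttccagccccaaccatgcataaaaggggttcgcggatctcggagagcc
CXCL2: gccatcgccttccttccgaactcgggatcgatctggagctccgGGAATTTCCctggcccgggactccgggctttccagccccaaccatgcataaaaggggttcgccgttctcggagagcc
CXCL3: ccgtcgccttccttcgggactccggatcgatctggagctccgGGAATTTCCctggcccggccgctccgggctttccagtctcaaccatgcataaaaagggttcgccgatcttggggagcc
CXCL5: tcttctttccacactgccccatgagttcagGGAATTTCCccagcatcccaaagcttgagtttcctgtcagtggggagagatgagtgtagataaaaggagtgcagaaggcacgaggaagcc
CXCL8: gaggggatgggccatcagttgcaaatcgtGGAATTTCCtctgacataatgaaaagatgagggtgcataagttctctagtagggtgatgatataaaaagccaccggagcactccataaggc
CCL20: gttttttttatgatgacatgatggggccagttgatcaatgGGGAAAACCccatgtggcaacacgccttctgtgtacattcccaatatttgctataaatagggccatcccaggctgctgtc
They lie at chr4:73869273-73869392 (plus strand) for CXCL1, chr4:74099196-74099315 (minus strand) for CXCL2, chr4:74038690-74038809 (minus strand) for CXCL3, chr4:73998678-73998797 (minus strand) for CXCL5, chr4:73740449-73740568 (plus strand) for CXCL8 and chr2:227813722-227813841 (plus strand) for CCL20.

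The form GGANTTTCC was found in 6 of the 7 promoters and in 1.64% of 35116 promoter windows in the table. Counted from the start, with the base before it as -1, it began at -78 in CXCL1 and CXCL3, at -77 in CXCL2, at -90 in CXCL5, at -89 in CXCL6 and at -91 in CXCL8. CCL20 held the other form, GGGAANNCC, at -80; that form was in 6.70% of all windows. The AP-1 motif was found in CXCL8 at -137 (7.71% of all windows), which lies upstream of the stretch shown. The TEAD motif was found in CCL20 at -45 on the opposite strand (14.03% of all windows). The letters TATAAA were found in CXCL8 at -31 and in CCL20 at -29 (11.5% of all windows). These matches are descriptions of the sequence and say nothing of binding. The printed stretches of CXCL1 and CXCL2 were 94.96% identical over their aligned bases, those of CXCL1 and CXCL3 90.8% and those of CXCL2 and CXCL3 89.9%. CXCL5 was 62.6 to 70.3% identical to these 3 over aligned bases. CXCL8 was 57.4 to 68.1% identical to these 3 and CXCL5, and CCL20 56.5 to 65% to the other 5 shown. These percentages leave out bases that fell in gaps, so they overstate the likeness of unlike sequences. Position by position, without gaps, the same comparisons gave 23.3 to 27.5% for CXCL5, 29.2 to 31.7% for CXCL8 and 25.8 to 32.5% for CCL20. Among CXCL1, CXCL2 and CXCL3 they gave 61.7 to 90.8%.

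With XMU_MP_1, transcripts of the monocyte attractant CCL2 fell 19.7-fold, those of CX3CL1 2.88-fold, and those of the neutrophil attractants CXCL8 and CXCL3 1.599- and 1.62-fold. CXCL5 fell 1.22-fold. CXCL2 and CCL20 rose by small amounts, 1.15- and 1.25-fold, and CXCL1, the most abundant of the 9, was not called. Calls are from limma on log2(FPKM + 1), with an adjusted p (Benjamini-Hochberg over all genes tested) below 0.05. Of the 8 chemokines tested, 2 were called higher, 5 lower and 1 neither. Over all 11151 genes, 57.9% were called, 32.0% higher and 25.9% lower, so that a call by itself is common in this comparison. The split by direction depended on the scaling between libraries. With TMM factors 3129 genes were called higher and 3199 lower, and with equal medians 3090 and 3164. Without rescaling these were 3567 and 2886, and with quantile normalization 3641 and 2969. The median log2 change was -0.45 over the 8 chemokines and 0.04 over all genes tested. CX3CL1 reached the filter of a mean of 1 FPKM only through its vehicle level, and a gene that enters in that way had to differ. With the closest pair of libraries in each group averaged, 5 chemokines were called, all lower. Over all genes that fit called 5166 of 11150, 2746 higher and 2420 lower. Without XMU_MP_1 replicate 3 and Vehicle replicate 2 all 8 chemokines were called, 2 higher and 6 lower. Over all genes this second fit called 7180 of 11143, 4010 higher and 3170 lower. In RNA from whole cultures, fewer cells that make a transcript and less of it per cell cannot be told apart.

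**Figure D1:**
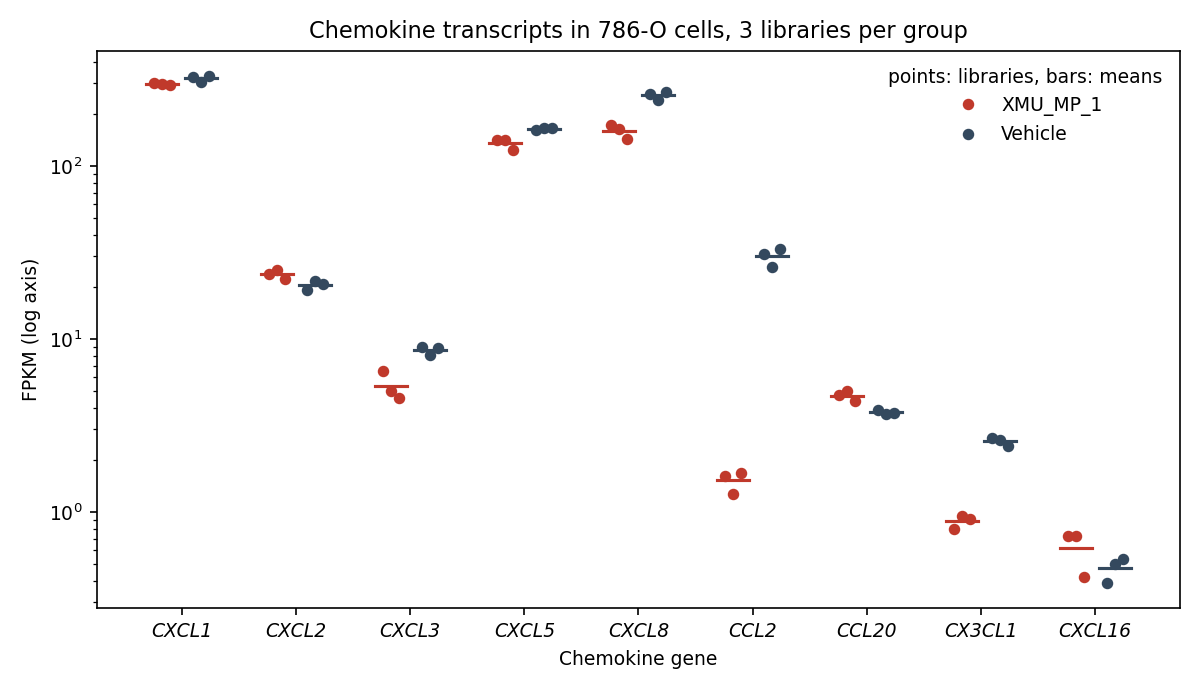
FPKM of the 9 chemokines in each library on a log axis, XMU_MP_1 left of Vehicle for each gene, with points for libraries and bars for group means. CCL2 shows the widest gap, at 1.27 to 1.67 FPKM with XMU_MP_1 and 25.9 to 33.15 FPKM with vehicle, and the groups overlap for CXCL16.

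The plot of FPKM by library shows both how far the chemokines differ in level and how far each moved. The 3 libraries of each group did not overlap in the 8 chemokines tested, and that was also so for 63.7% of all 11151 genes tested. The order of levels changed with XMU_MP_1 mainly through CCL2, which was the fourth highest of the 9 with vehicle and the seventh highest with XMU_MP_1. With XMU_MP_1 the order was CXCL1, CXCL8, CXCL5, CXCL2, CXCL3, CCL20, CCL2, CX3CL1 and CXCL16, and the ranges of CXCL3 and CCL20 overlapped. With vehicle it was CXCL1, CXCL8, CXCL5, CCL2, CXCL2, CXCL3, CCL20, CX3CL1 and CXCL16, and no neighbours in this order overlapped.

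CXCL8, also known as interleukin-8, is the classical neutrophil attractant and the first gene of the CXC cluster on chromosome 4 (chr4:73740506-73743716, plus strand, GRCh38). It had 172.47, 163.48 and 143.51 FPKM with XMU_MP_1, against 259.97, 240.57 and 266.27 FPKM with vehicle. Every XMU_MP_1 library lay far below every vehicle library, and the lowest value was that of XMU_MP_1 replicate 3. The mean was 159.8 ± 14.8 FPKM with XMU_MP_1 and 255.6 ± 13.4 FPKM with vehicle (SD, n = 3 each), and the log2 change was -0.68 (SE 0.074, 95% interval -0.84 to -0.51, limma adjusted p = 2.28e-05). In absolute terms this was the largest fall among the chemokines, at 95.8 FPKM.

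CXCL3 (chr4:74036589-74038807, minus strand) attracts neutrophils through the same receptor as its close relatives CXCL1 and CXCL2. Its levels were 6.47, 5.01 and 4.57 FPKM with XMU_MP_1 and 9.01, 8.05 and 8.9 FPKM with vehicle. The groups did not overlap, and the XMU_MP_1 libraries were more spread than the vehicle ones. The mean of 5.35 ± 0.995 FPKM with XMU_MP_1 and that of 8.65 ± 0.525 FPKM with vehicle gave a log2 change of -0.61 (SE 0.10, 95% interval -0.84 to -0.39, limma adjusted p = 4.13e-04).

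CXCL5 (chr4:73995642-73998779, minus strand), an epithelial neutrophil attractant, had 140.8, 140.2 and 123.63 FPKM with XMU_MP_1, against 161.18, 166.11 and 164.39 FPKM with vehicle. The groups stood apart, and XMU_MP_1 replicate 3 was again lowest. CXCL5 averaged 134.9 ± 9.74 FPKM with XMU_MP_1 and 163.9 ± 2.50 FPKM with vehicle (log2 change -0.28, SE 0.061, limma adjusted p = 0.00248).

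CXCL1 (chr4:73869393-73871242, plus strand), first described as a melanoma growth-stimulating protein, had the highest level of the 9 chemokines in every library. It measured 301.37, 297.66 and 294.52 FPKM with XMU_MP_1, against 325.85, 304.5 and 330.07 FPKM with vehicle. The groups did not overlap, but only 3.13 FPKM separated the nearest libraries, the lowest vehicle value being that of replicate 2. The log2 change of -0.10 (95% interval -0.23 to 0.03) did not pass (limma adjusted p = 0.152). Without Vehicle replicate 2 it was -0.14 and passed (limma adjusted p = 0.0414), and it passed with quantile normalization at -0.18 (limma adjusted p = 0.0068).

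CXCL2 (chr4:74097035-74099293, minus strand) had 23.81, 25.07 and 22.05 FPKM with XMU_MP_1, against 19.26, 21.67 and 20.78 FPKM with vehicle. Every XMU_MP_1 library was above every vehicle library, by as little as 0.38 FPKM between XMU_MP_1 replicate 3 and Vehicle replicate 2. The mean was 23.6 ± 1.52 FPKM with XMU_MP_1 and 20.6 ± 1.22 FPKM with vehicle, and CXCL2 rose by a log2 change of 0.19 (SE 0.064, 95% interval 0.05 to 0.33, limma adjusted p = 0.0252). This call was lost without XMU_MP_1 replicate 1 (log2 change 0.19, limma adjusted p = 0.0690), XMU_MP_1 replicate 2 (0.15, adjusted p = 0.105), Vehicle replicate 1 (0.15, adjusted p = 0.116) or Vehicle replicate 3 (0.20, adjusted p = 0.0529). It was also lost with TMM factors and with the closest libraries averaged.

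CCL2 (chr17:34255218-34257203, plus strand), the monocyte chemoattractant protein, had 1.62, 1.27 and 1.67 FPKM with XMU_MP_1, against 30.77, 25.9 and 33.15 FPKM with vehicle. The highest XMU_MP_1 value was far below the lowest vehicle value. It averaged 1.52 ± 0.218 FPKM with XMU_MP_1 and 29.9 ± 3.70 FPKM with vehicle. The log2 change of -3.61 (SE 0.096, 95% interval -3.83 to -3.40, limma adjusted p = 1.14e-09) was the largest fall of the 11151 genes tested. It stood on the log2(FPKM + 1) scale, which understates changes of low values.

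CX3CL1 (chr16:57372458-57385048, plus strand), or fractalkine, is a chemokine on a mucin stalk in the cell membrane that proteases can release. It had 0.8, 0.95 and 0.91 FPKM with XMU_MP_1, against 2.66, 2.6 and 2.39 FPKM with vehicle. The groups stood well apart although all levels were low. The mean of 0.887 ± 0.0777 FPKM with XMU_MP_1 and that of 2.55 ± 0.142 FPKM with vehicle gave a log2 change of -0.91 (SE 0.072, 95% interval -1.07 to -0.75, limma adjusted p = 1.95e-06). With a pseudocount of 0.1 in place of 1 the log2 change was -1.43.

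CCL20 (chr2:227805739-227817564, plus strand) had 4.71, 4.99 and 4.35 FPKM with XMU_MP_1, against 3.87, 3.67 and 3.73 FPKM with vehicle. The groups were separated by 0.48 FPKM, with all 3 XMU_MP_1 libraries higher. CCL20 averaged 4.68 ± 0.321 FPKM with XMU_MP_1 and 3.76 ± 0.103 FPKM with vehicle (log2 change 0.26, SE 0.069, 95% interval 0.10 to 0.41, limma adjusted p = 0.00884). With the closest libraries averaged, the call was lost (log2 change 0.24, limma adjusted p = 0.0599).

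CXCL16 (chr17:4733526-4739922, minus strand), which also serves as a scavenger receptor for oxidized lipoprotein, had 0.72, 0.72 and 0.42 FPKM with XMU_MP_1, against 0.39, 0.5 and 0.53 FPKM with vehicle. The groups overlapped through XMU_MP_1 replicate 3. Its mean was 0.62 ± 0.173 FPKM with XMU_MP_1 and 0.473 ± 0.0737 FPKM with vehicle.

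**Figure D2:**
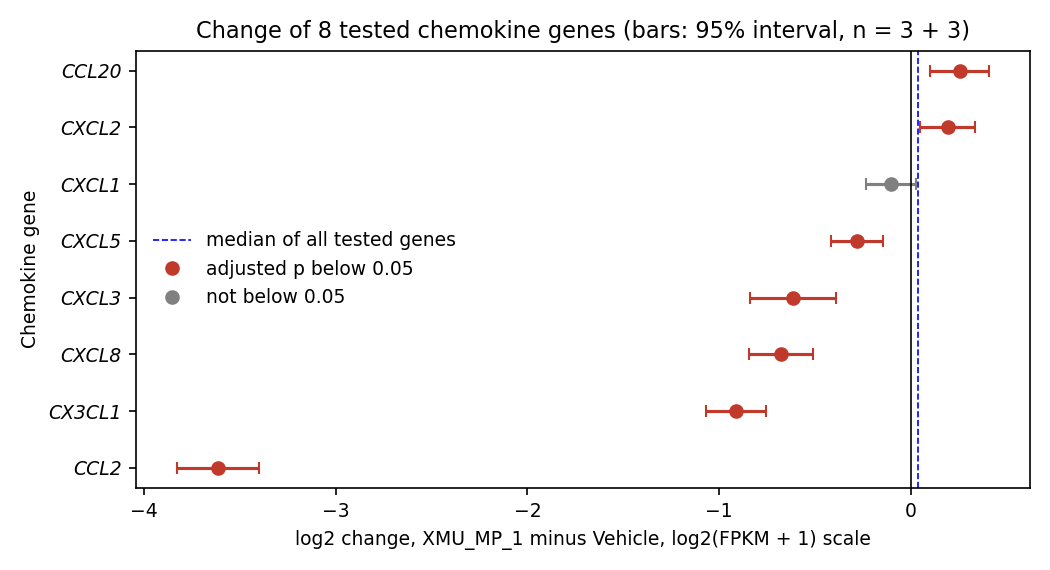
Log2 change of each tested chemokine, XMU_MP_1 minus Vehicle on the log2(FPKM + 1) scale, with 95% intervals from limma. CCL2 lies far left at -3.61, CX3CL1, CXCL8, CXCL3 and CXCL5 lie left of 0, the interval of CXCL1 spans 0, and CXCL2 and CCL20 lie right of it.

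The plot of log2 changes sets these 8 estimates beside each other. CCL2 stood far from the others, CX3CL1, CXCL8 and CXCL3 lay between -0.91 and -0.61, and the 4 remaining genes lay between -0.28 and 0.26.

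Summed over the 9 genes, chemokine transcripts came to 629.2 ± 29.9 FPKM with XMU_MP_1 (595.63 to 652.77) and 805.6 ± 29.03 FPKM with vehicle (773.57 to 830.21), 1.28-fold lower with XMU_MP_1. CXCL8 accounted for 54.3% of the net fall of 176.3 FPKM, CXCL5 for 16.5%, CCL2 for 16.1% and CXCL1 for 12.6%. The makeup of the sum shifted as well. CXCL1 made up 47.4% of it with XMU_MP_1 and 39.7% with vehicle, and CXCL8 made up 25.4% with XMU_MP_1 and 31.7% with vehicle. CCL2 made up 0.242% with XMU_MP_1 and 3.71% with vehicle. The neutrophil-attracting CXC genes together held 98.8% of the sum with XMU_MP_1 and 95.4% with vehicle. These shares describe transcript levels and were not tested.

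The CXC genes of chromosome 4 lie within 359 kb, in the order CXCL8, CXCL6, CXCL1, CXCL5, CXCL3 and CXCL2. CXCL3 and CXCL2 are separated by 58.2 kb and moved in opposite directions. Their coding sequences are 94.4% identical, those of CXCL1 and CXCL2 93.5% and those of CXCL1 and CXCL3 90.7%, so reads of one could be assigned to another. Their reference transcripts shared no run of 100 bases in any pair, and 5.73% of the 50-base words of CXCL1 were found in CXCL2. How the authors assigned reads to such genes was not stated in the sources used here, and the split of reads between these 3 genes is uncertain.

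Ratios of these genes inside a library do not depend on the library's scaling. The CXCL2 to CXCL3 ratio was 3.68, 5.004 and 4.82 with XMU_MP_1, against 2.14, 2.69 and 2.33 with vehicle. The CXCL8 to CXCL1 ratio was 0.572, 0.549 and 0.487 with XMU_MP_1, against 0.798, 0.790 and 0.807 with vehicle. Both ratios stood apart between the groups, the first higher and the second lower with XMU_MP_1. The CXCL2 to CXCL1 ratio averaged 0.0794 ± 0.00469 with XMU_MP_1 and 0.0644 ± 0.00616 with vehicle, and the CXCL3 to CXCL1 ratio averaged 0.0179 ± 0.00313 with XMU_MP_1 and 0.0270 ± 0.000609 with vehicle (SD, n = 3 each). In all 4 ratios the groups did not overlap, and each gave p = 0.1 in an exact two-sided permutation test (adjusted p = 0.1 over the 4 ratios). That is the smallest p that 3 against 3 libraries allow, so none could pass 0.05.

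**Figure D3:**
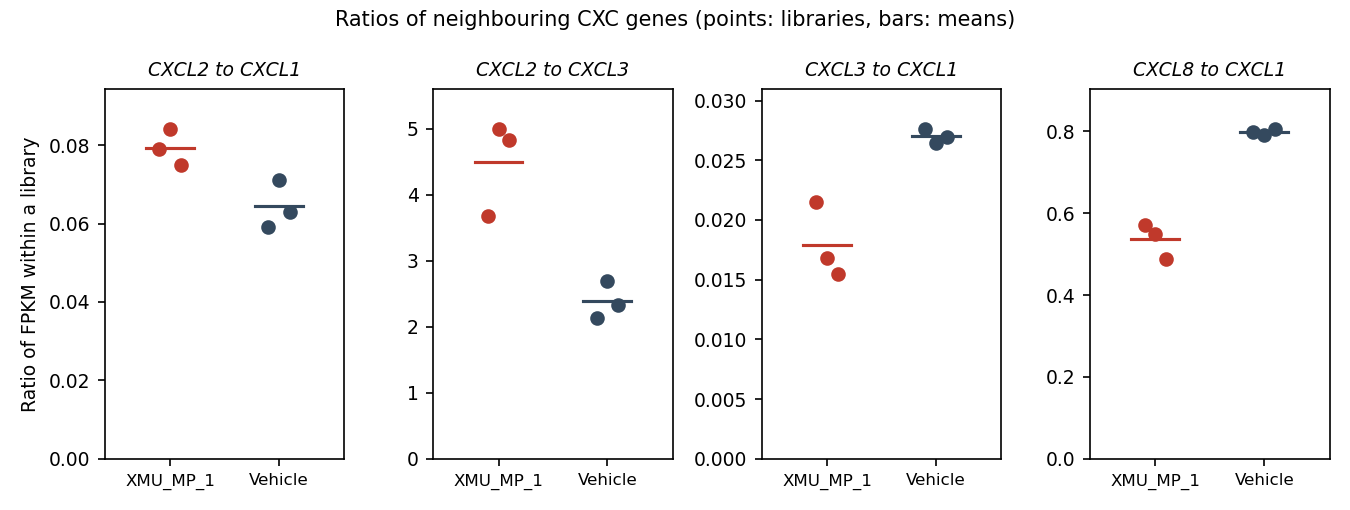
Ratios of FPKM between CXC genes of chromosome 4 within each library, XMU_MP_1 left of Vehicle, with points for libraries and bars for means on axes that start at 0. CXCL2 gained on both CXCL1 and CXCL3 in the XMU_MP_1 libraries, and CXCL3 and CXCL8 lost against CXCL1.

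The plot of ratios shows the 3 libraries of each group apart in every panel, with XMU_MP_1 replicate 1 nearest to the vehicle libraries for CXCL2 to CXCL3, CXCL3 to CXCL1 and CXCL8 to CXCL1.

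Neighbours were taken over a longer stretch beyond CXCL2 than before CXCL8, and over a shorter one around CX3CL1. Of 5 tested neighbours of the CXC cluster, 0 were called higher, 3 lower and 2 neither. BTC, 645 kb beyond CXCL2, averaged 1.21 FPKM with XMU_MP_1 and 1.89 FPKM with vehicle (log2 change -0.39, limma adjusted p = 0.00128). ANKRD17, before CXCL8, averaged 15.1 FPKM with XMU_MP_1 and 14.1 FPKM with vehicle and was not called (limma adjusted p = 0.191). Over all 11151 genes tested, 57.9% were called, and whether position bears on the changes at any of these loci was not tested. MTHFD2L, a mitochondrial folate enzyme gene next to CXCL2, averaged 5.88 FPKM with XMU_MP_1 and 6.73 FPKM with vehicle and was not called (limma adjusted p = 0.0899). The gene of epiregulin, EREG, lies 266 kb beyond CXCL2 and averaged 24.97 ± 2.44 FPKM with XMU_MP_1 and 204.5 ± 11.3 FPKM with vehicle (log2 change -2.99, limma adjusted p = 6.89e-10). AREG, whose product amphiregulin also binds the EGF receptor, averaged 5.52 ± 0.923 FPKM with XMU_MP_1 and 23.8 ± 2.95 FPKM with vehicle (log2 change -1.93, limma adjusted p = 2.03e-07). The chemokines PF4 and PPBP, which lie inside the cluster and are known from platelets, stayed at or under 0.2 FPKM in every library. At the CCL2 locus, the next gene CCL7 was listed at 0 with XMU_MP_1 and at 0.13 FPKM in 1 vehicle library. Of 8 tested neighbours of CX3CL1, 2 were called higher, 2 lower and 4 neither. POLR2C and DOK4, which lie between CX3CL1 and CCDC102A, rose by log2 changes of 0.38 and 0.24 (limma adjusted p = 8.98e-05 and 0.00877). CCDC102A, 127 kb from CX3CL1, averaged 4.17 FPKM with XMU_MP_1 and 8.66 FPKM with vehicle and fell by 0.90 on the log2 scale. PLLP, 87.8 kb from CX3CL1 on the other side, averaged 1.46 FPKM with XMU_MP_1 and 5.81 FPKM with vehicle (log2 change -1.47, limma adjusted p = 1.19e-07). CCL22 and CCL17, the chemokine genes on either side of CX3CL1, stayed under 0.5 FPKM in every library.

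**Figure D4:**
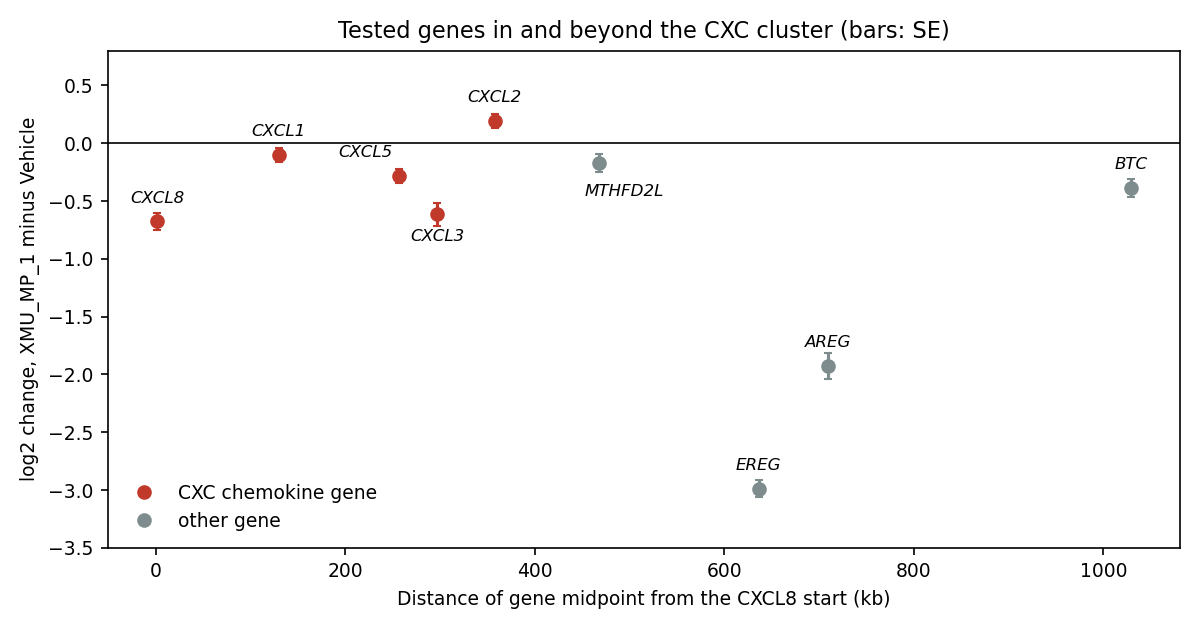
Log2 change, XMU_MP_1 minus Vehicle, against the distance of the gene's midpoint in kb from the start of CXCL8. Points are tested genes from CXCL8 onward, in and beyond the CXC cluster, and bars are the SE from limma. ANKRD17, which lies before CXCL8, is not drawn. CXCL8, CXCL5 and CXCL3 lie below 0, CXCL2 lies above it, and EREG and AREG, beyond the cluster, lie furthest below.

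The plot along chromosome 4 shows log2 changes from -0.68 (CXCL8) to 0.19 (CXCL2) inside the cluster and the larger falls of EREG and AREG beyond it. Genes of like pattern were taken as those with the smallest root-mean-square (RMS) difference in centred log2(FPKM + 1) over the 6 libraries, among 10248 other genes (10249 for CX3CL1). This is a description over libraries that the comparison itself splits into groups. For CCL2 they were TNFSF10, which encodes the death ligand TRAIL (RMS 0.27), EREG (0.38) and PDGFB (0.44), none of which moved as far as CCL2 itself. CX3CL1 was nearest to PDGFC (0.016), STK10 (0.029) and CCDC102A (0.040). The scale understates changes of low values such as those of CX3CL1, which fell 2.88-fold where CCDC102A fell 2.08-fold. CXCL8 was nearest to HOXB4 (0.036), IQCJ-SCHIP1 (0.048) and NPAS2 (0.051), and CXCL3 to NPAS2 (0.061) and CXCL8 (0.078). For the genes that moved little, nearness says little, since many genes moved little: CXCL5 was nearest to CLDN12 (0.016), CXCL2 to FAM217B (0.015), CCL20 to RRAS2 (0.023) and CXCL1 to RWDD4 (0.0091).

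Other chemokine genes were mostly at very low levels. Of a list of 37, 20 had values, and 16 of them stayed under 1 FPKM in every library. The 2 that were tested were both called lower with XMU_MP_1, beside 25.9% of all genes tested. CCL28, an attractant of mucosal lymphocytes, had 4.75, 4.46 and 4.91 FPKM with XMU_MP_1, against 6.53, 6.06 and 6.33 FPKM with vehicle (log2 change -0.36, limma adjusted p = 8.42e-04). CCL5, an attractant of T cells, had 1.99, 2.59 and 2.21 FPKM with XMU_MP_1, against 3.29, 2.98 and 2.96 FPKM with vehicle (log2 change -0.32, limma adjusted p = 0.00633). In both genes the groups stood apart, as in 63.7% of all genes tested, and neither gene approached the level of CXCL1, CXCL5 or CXCL8.

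Chemokine receptor transcripts were scarce in the same cells. Of 23 receptor genes, 15 had values and 13 of them stayed under 1 FPKM in every library, among them CXCR2 at 0.15 to 0.34 FPKM. The 2 that were tested are atypical receptors, which bind chemokines without the usual G protein signal. Both were called lower, beside 25.9% of all genes tested. CCRL2, which holds chemerin at the cell surface, had 0.48, 0.57 and 0.75 FPKM with XMU_MP_1, against 2.96, 2.49 and 2.85 FPKM with vehicle (log2 change -1.24, limma adjusted p = 7.74e-07). Like CX3CL1, it passed the filter only through its vehicle level. ACKR3, which removes CXCL12 from the surroundings, had 1.11, 1.58 and 1.13 FPKM with XMU_MP_1, against 3.62, 4.09 and 3.01 FPKM with vehicle (log2 change -1.01, limma adjusted p = 1.66e-05).

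Genes for the release or trimming of chemokines were described next, both proteases and proteins that act on them. Of 6 genes 5 were tested, 0 were higher and 3 lower, where 57.9% of all genes tested were called. RHBDF2, a partner that brings the protease ADAM17 to the surface, averaged 20.5 ± 0.734 FPKM with XMU_MP_1 and 33.4 ± 2.01 FPKM with vehicle (log2 change -0.67, limma adjusted p = 3.97e-06). ADAM10, which releases CX3CL1 and CXCL16 from the membrane, averaged 29.2 ± 3.83 FPKM with XMU_MP_1 and 35.3 ± 1.64 FPKM with vehicle (log2 change -0.27, limma adjusted p = 0.0183). Its call was lost without Vehicle replicate 2 (limma adjusted p = 0.0531), with no filter on low values (limma adjusted p = 0.0517) and against a minimum fold of 1.5, and its log2 change was -0.16 without XMU_MP_1 replicate 3. DPP4, which trims the ends of many chemokines, averaged 27.8 FPKM with XMU_MP_1 and 30.7 FPKM with vehicle (log2 change -0.14, limma adjusted p = 0.0313), and its call was lost in 7 of 18 alternatives, among them leaving out any library other than XMU_MP_1 replicate 3.

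Of 16 genes for cytokines that induce chemokines, their receptors and adaptors, 12 were tested, 1 was called higher and 7 lower. Their median log2 change was -0.20, against 0.04 over all genes tested, of which 57.9% were called. IL1R1, the signalling receptor of interleukin-1, fell to 5.94 ± 0.676 FPKM with XMU_MP_1, against 21.3 ± 1.45 FPKM with vehicle (log2 change -1.69, limma adjusted p = 6.26e-08). TNFRSF1A, the main TNF receptor, averaged 48.5 FPKM with XMU_MP_1 and 91.1 FPKM with vehicle (log2 change -0.89, limma adjusted p = 1.44e-07). The adaptor MYD88 averaged 10.9 FPKM with XMU_MP_1 and 19.9 FPKM with vehicle (log2 change -0.82). The lymphotoxin receptor LTBR averaged 73.5 FPKM with XMU_MP_1 and 107.1 FPKM with vehicle (log2 change -0.54). TNF itself averaged 10.2 ± 0.344 FPKM with XMU_MP_1 and 9.25 ± 0.239 FPKM with vehicle and was not called (limma adjusted p = 0.0889).

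Among 26 transcription factor genes of the NF-κB, AP-1, C/EBP and YAP-TEAD groups, 23 were tested, 6 were called higher and 9 lower. Their median log2 change was -0.02, and 57.9% of all genes tested were called. BCL3, a nuclear partner of NF-κB p50 and p52, fell to 4.31 ± 0.234 FPKM with XMU_MP_1, against 32.6 ± 1.04 FPKM with vehicle (log2 change -2.66, limma adjusted p = 4.74e-10). RELA, the subunit that activates many chemokine genes, averaged 68.3 FPKM with XMU_MP_1 and 67.7 FPKM with vehicle (log2 change 0.01, limma adjusted p = 0.868). NFKB1, the gene of p50, averaged 21.7 FPKM with XMU_MP_1 and 25.1 FPKM with vehicle (log2 change -0.20, limma adjusted p = 0.0156), and its log2 change was -0.12 without XMU_MP_1 replicate 3 and Vehicle replicate 2. ATF3 averaged 6.53 FPKM with XMU_MP_1 and 1.72 FPKM with vehicle, and JUND averaged 83.9 FPKM with XMU_MP_1 and 37.8 FPKM with vehicle. ATF3 and JUND rose, by log2 changes of 1.47 (limma adjusted p = 4.70e-08) and 1.13 (limma adjusted p = 3.00e-07). Other AP-1 genes went both ways. JUN rose (log2 change 0.27, limma adjusted p = 6.41e-04), and JUNB was not called (-0.02). FOSL1, the most abundant of the list, averaged 266.6 FPKM with XMU_MP_1 and 425.3 FPKM with vehicle. FOSL1 and FOSL2 fell, by log2 changes of -0.67 and -0.69 (limma adjusted p = 6.72e-06 and 1.13e-05). Of the coactivators, YAP1 averaged 15.2 FPKM with XMU_MP_1 and 22.7 FPKM with vehicle (log2 change -0.55, limma adjusted p = 2.01e-04), and WWTR1, the gene of TAZ, averaged 30.6 FPKM with XMU_MP_1 and 60.6 FPKM with vehicle (log2 change -0.96, limma adjusted p = 1.06e-07). TEAD4 averaged 26.1 FPKM with XMU_MP_1 and 23.4 FPKM with vehicle and was not called (limma adjusted p = 0.106). It was called without XMU_MP_1 replicate 2 (limma adjusted p = 0.0294).

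Chemokine transcripts are known to be short-lived, and 12 genes for proteins that act on such transcripts were tested. Of these, 4 were called higher and 4 lower, with a median log2 change of -0.06, beside 57.9% called over all genes tested. HNRNPD, which binds AU-rich elements, averaged 103.6 FPKM with XMU_MP_1 and 179.5 FPKM with vehicle (log2 change -0.79, limma adjusted p = 4.97e-07). ZFP36L1, a decay factor of the same elements, averaged 103.2 FPKM with XMU_MP_1 and 193.1 FPKM with vehicle (log2 change -0.90, limma adjusted p = 9.37e-07). ARID5A, which stabilizes inflammatory transcripts, averaged 9.48 FPKM with XMU_MP_1 and 5.22 FPKM with vehicle (log2 change 0.75), and RC3H1, which encodes the decay factor roquin-1, averaged 4.18 FPKM with XMU_MP_1 and 2.71 FPKM with vehicle (log2 change 0.48). Both rose, with limma adjusted p of 6.36e-05 and 2.49e-04.

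**Figure D5:**
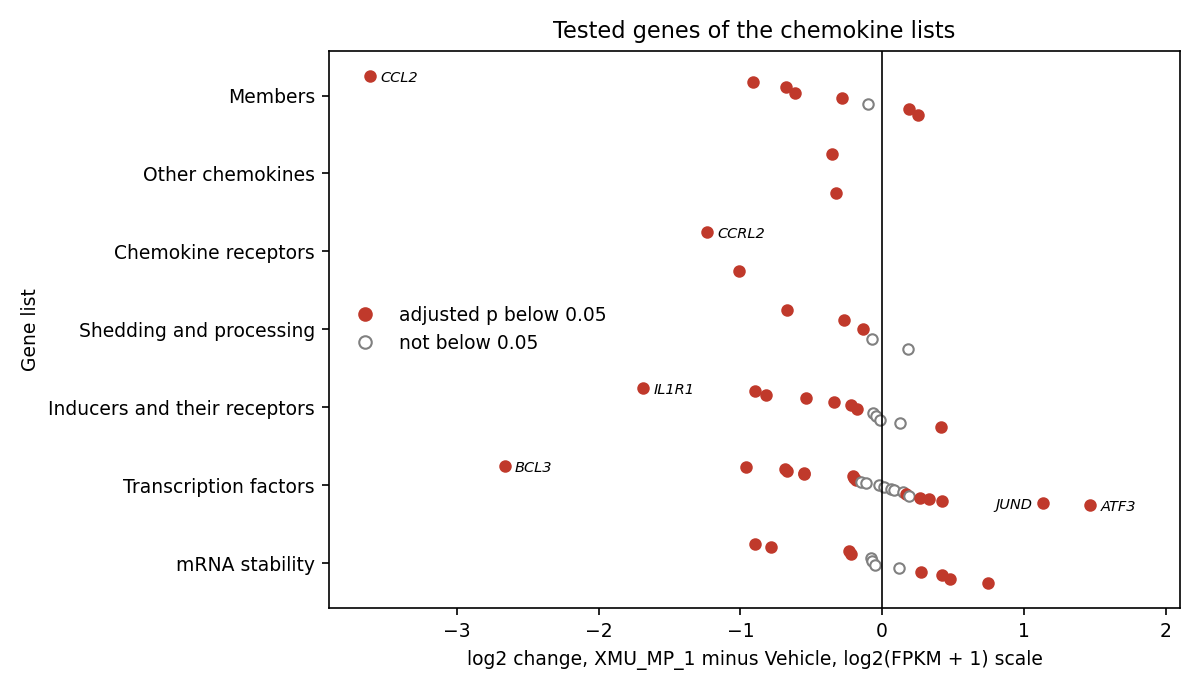
Log2 change, XMU_MP_1 minus Vehicle on the log2(FPKM + 1) scale, of each tested gene in the chemokine set and in 6 lists of related genes, with filled points for an adjusted p below 0.05. CCL2 lies furthest left at -3.61, followed by BCL3 at -2.66, and ATF3 lies furthest right at 1.47.

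The plot of the gene lists shows genes of both directions among transcription factors and mRNA stability genes. The 2 chemokine receptors and 3 shedding genes that were called lay below 0, and 25.9% of all genes tested were called lower. Whether any of these genes bears on the chemokine levels was not tested.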

How the data were processed

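Per the labels' protocols, cells were lysed in Trizol and total RNA was made into BGISEQ-500 libraries, 3 per group, with groups and replicate numbers taken from the sample titles. Per the file headers, the deposited values are FPKM by gene symbol, to 2 decimals, with each library in a table of its own. Per the submitters' processing notes the reads were placed on GRCh38. Aligner, quantifier and annotation were not given in the sources used here. FPKM is relative to each library's own total, so a change in very abundant genes shifts the others. No shared step of 1 read was found in the values, so depth is unknown, no count model was used, and no counting interval is given.

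In R 4.3.3, limma 3.58.1 with statmod 1.5.0 was fitted to log2(FPKM + 1) of genes whose mean reached 1 FPKM. The model held the group alone, with trended and robust variance moderation, no rescaling between libraries, and two-sided p-values adjusted by Benjamini-Hochberg over the 11151 genes tested, with a threshold of 0.05. The fit was also run on simulated data in which few genes changed and the libraries were independent. Those settings differ from these data, so that run does not vouch for the calls. Ratios were tested by exact permutation (scipy 1.17.1). Positions are from GENCODE release 29 on GRCh38, matched by symbol, and span the whole gene. Promoters are from RefSeq (GRCh38.p14), aligned with Biopython 1.88 (Python 3.11.15).

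The chemokines, the gene lists and the alternatives were chosen with earlier results of these data known. Named genes are the 10 chemokines, up to 4 called genes with the smallest adjusted p from each list, other chemokine or receptor genes whose mean reached 1 FPKM, and RELA, NFKB1, YAP1, WWTR1 and TEAD4. Other genes (PAX8, KRT19, CSF1R, PTPRC, CXCR2, TNF, JUN, JUNB, FOSL1, FOSL2, CCL7, CCL17, CCL22, PF4, PPBP and the neighbours on the chromosomes) were named after their values were seen. Genes of like pattern had a mean of at least 2 FPKM. Alternatives changed the pseudocount, the filter, the scaling, the moderation, the replicate block, the minimum fold and the libraries used.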

Additional observations from a re-analysis of the deposited data

How the results depend on the processing

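No chemokine changed the sign of its log2 change in any alternative run. Of the chemokine values, ratios and counts of genes recomputed, 262 were rated as the same, 12 lost a call, 3 gained one and 14 moved. A tested chemokine was rated the same if it kept its sign and call, and a count if it stayed within 1.5-fold. For a ratio only the sign was compared, not its size. CXCL16 was rated the same if it shifted by less than the larger SD of its groups. CXCL2 lost its call with TMM factors (log2 change 0.16), with the closest libraries averaged (0.15) and against a minimum fold of 1.5 (0.19), and ran from 0.15 to 0.24 when 1 library was left out. CCL20 lost its call with the closest libraries averaged (0.24) and against the minimum fold (0.26). CXCL1, not called, was called with quantile normalization (-0.18) and without Vehicle replicate 2 and XMU_MP_1 replicate 3 together (-0.13), and ran from -0.14 to -0.081 when 1 library was left out. Chemokines called higher numbered 1 with a filter at 5 FPKM, 1 with TMM factors, 0 with the closest libraries averaged, and 1 to 2 when 1 library was left out. At 5 FPKM this follows from the filter, which leaves CCL20 untested. Against a minimum fold of 1.5, 613 genes were called, 158 higher and 455 lower, and 2 chemokines, CCL2 and CX3CL1, 0 higher and 2 lower; CXCL3 (-0.61), CXCL5 (-0.28) and CXCL8 (-0.68) lost their calls; the changes of CXCL3 and CXCL8 exceed that fold, but not by enough for their SE. CXCL16, without a test, moved to 0.31 with a pseudocount of 0.1. For the other changes the cause was not tested. When 1 library was left out, 5606 to 6447 genes were called.

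Whether replicate numbers pair the libraries could not be told from the values. Deviations of same-numbered libraries correlated at -0.20, 0.39 and 0.24, and those of differently numbered libraries at -0.46 to 0.34. With the replicate number as a block, 7049 genes were called against 6453 without it, and no chemokine changed its call. TEAD4, not called without the block (adjusted p = 0.106), was called with it (limma adjusted p = 0.0358). Median changes of all genes shifted by less than 0.1 (log2) under every scaling.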
